A study of Mus musculus with 8 samples.

Results

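Small structural noncoding RNAs were followed through 8 mouse livers. They are the guide RNAs and catalytic or scaffold RNAs that work as RNA rather than as templates for protein. All rows of the gene count table were taken whose symbol begins with Snora, Snord, Scarna, Rnu, Rny or Rn7s, together with Rpph1, Rmrp, Terc and Rn45s. This gave 128 of 25078 genes, and the 104 with a summed count of at least 10 over the 8 libraries are described: 31 Snora, 57 Snord, 8 Scarna and 8 others. The other 24 were below that count. The livers came from male C57/BL6 mice fed a diet high in fat, fructose and cholesterol for 25 weeks, and the submitters asked what midnolin, the protein of the gene Midn, does in fatty liver disease. Of these, 5 were wild type, and 3 carried a global knockout of 1 copy of Midn (hemizygotes by the genotype label, Het by title), here called het-labelled. The sources used here do not state the age of the mice.

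Most of these RNAs are made in the nucleus and guide or cut other RNAs. Box C/D small nucleolar RNAs (Snord) pair with ribosomal RNA and direct 2′-O-methylation, box H/ACA RNAs (Snora) direct pseudouridylation, and small Cajal body RNAs (Scarna) guide the same changes in spliceosomal RNAs. Rpph1 is the RNA of ribonuclease P, which trims the 5′ end of precursor transfer RNAs, and Rmrp is the RNA of the related ribonuclease MRP, which takes part in ribosomal RNA processing. Most snoRNAs are cut out of introns of host genes, whereas Rpph1 and Rmrp have promoters of their own for RNA polymerase III. Their mature forms carry no long poly(A) tail. The libraries were made with a kit for messenger RNA, which captures poly(A) tails, so the counts show what part of these RNAs entered such libraries and not their full amount in the liver.

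The sequences of 8 members are shown because the results turn on them: both ribonuclease RNAs, 3 guides that moved with Rpph1 (Snord15a, Snord17 and Snora68), and 3 that did not (Snord96a, Snord71 and Snora75). They were copied from the GENCODE M21 transcripts (GRCm38, the assembly also called mm10). Of Rpph1, 319 bases long, the first 300 bases are shown. Capitals mark TGATGA within the first 20 bases (the letters of box C) and CTGA within the last 20 (box D) of a Snord RNA, and ACA within the last 8 bases of a Snora RNA, all on the RNA's own strand.
Rpph1, chr14:50807468-50807767, minus strand: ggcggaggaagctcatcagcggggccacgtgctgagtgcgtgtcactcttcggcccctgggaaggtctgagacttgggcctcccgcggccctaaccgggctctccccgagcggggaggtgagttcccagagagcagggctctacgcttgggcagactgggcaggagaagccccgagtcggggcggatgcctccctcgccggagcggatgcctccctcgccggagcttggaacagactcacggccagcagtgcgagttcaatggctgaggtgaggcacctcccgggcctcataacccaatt
Rmrp, chr4:43492788-43493058, minus strand: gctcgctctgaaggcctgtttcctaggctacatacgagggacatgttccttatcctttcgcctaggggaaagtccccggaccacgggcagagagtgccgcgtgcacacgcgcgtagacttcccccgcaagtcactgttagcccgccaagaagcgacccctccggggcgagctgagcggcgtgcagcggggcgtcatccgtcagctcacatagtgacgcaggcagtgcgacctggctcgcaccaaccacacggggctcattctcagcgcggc
Snord15a, chr7:99482785-99482932, minus strand: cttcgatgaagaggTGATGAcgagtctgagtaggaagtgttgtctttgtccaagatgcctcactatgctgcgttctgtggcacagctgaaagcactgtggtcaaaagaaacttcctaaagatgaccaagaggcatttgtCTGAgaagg
Snord17, chr2:144265979-144266216, minus strand: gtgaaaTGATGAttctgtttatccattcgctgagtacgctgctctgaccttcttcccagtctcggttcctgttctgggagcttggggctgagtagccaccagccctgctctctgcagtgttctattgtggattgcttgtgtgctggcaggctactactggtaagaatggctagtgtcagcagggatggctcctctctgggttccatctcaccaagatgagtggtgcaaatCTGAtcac
Snora68, chr8:70895759-70895889, minus strand: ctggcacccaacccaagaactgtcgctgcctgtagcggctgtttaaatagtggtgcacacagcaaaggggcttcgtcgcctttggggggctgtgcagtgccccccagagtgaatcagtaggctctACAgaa
Snord96a, chr11:48802032-48802112, plus strand: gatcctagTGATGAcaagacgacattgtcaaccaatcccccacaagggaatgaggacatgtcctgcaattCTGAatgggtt
Snord71, chr8:109839295-109839379, plus strand: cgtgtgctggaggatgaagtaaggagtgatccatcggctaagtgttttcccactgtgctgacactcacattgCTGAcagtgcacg
Snora75, chr1:86351169-86351301, minus strand: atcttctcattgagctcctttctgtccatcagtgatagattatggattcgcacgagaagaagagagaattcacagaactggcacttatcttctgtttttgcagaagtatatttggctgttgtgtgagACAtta
TGATGA stood in that window in 35 of the 56 Snord members with a GENCODE model, CTGA in 54, and both in 33. ACA stood at the end of 29 of the 31 Snora members. In Snord71 these 6 letters were not in the window, although CTGA was. Snord models were 64 to 238 bases long with a median of 80, and Snora models 127 to 196 bases with a median of 133.

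Total counts ran from 17508221 to 24916239 per library, with no difference between genotypes that passed a two-sided exact permutation test (p = 0.2143; the smallest possible is 0.0357 over 56 assignments). Levels below are in CPM, counts per 1000000 after TMM scaling, in wild-type libraries 1 to 5 and then het-labelled libraries 1 to 3. Midn itself, which checks the labels, stood at 68.7, 39.8, 71.5, 41.7 and 29.3 CPM in wild type and at 60.4, 39.1 and 51.7 CPM in het-labelled livers. The groups overlapped, with a log2 fold change of 0.00 (SE 0.30; edgeR quasi-likelihood test, adjusted p = 0.994). Midn was itself called against Rpph1 (r = −0.89, exact permutation, adjusted p = 0.0189; slope −0.46, SE 0.09), and its difference was −0.54 (SE 0.17) without wild-type libraries 2, 4 and 5 and 0.40 (SE 0.19) without wild-type libraries 1 and 3, neither of which passed in edgeR (adjusted p = 0.104 and 0.167). Over all 8 livers the level of Midn does not tell the genotypes apart, and directions are those of the libraries labelled heterozygous. The labels name no batch. Summed levels of 4 Kupffer cell and macrophage genes were 669, 1173 and 1574 CPM in wild-type libraries 2, 4 and 5 and between 414 and 616 CPM in the other 5. Every one of these 4 genes was counted in every library. Hepatocyte genes were high throughout, with 30152 to 36861 CPM in wild type and 34636 to 62549.7 CPM in het-labelled libraries over the 4 of 5 listed genes in the table. Other lists varied too: bile duct genes summed to 11.3 to 89.1 CPM and T and NK cell genes to 1.52 to 8.14 CPM. Both were highest in wild-type library 3. Of 5 red cell genes, the 4 globin genes were at 0 in every library.

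Rpph1 was the measure against which the others were set. It took 0.331, 0.899, 0.304, 0.673 and 1.06% of all counts in wild-type libraries 1 to 5 and 0.229, 0.399 and 0.288% in het-labelled libraries 1 to 3. In CPM these were 2909.9, 8703, 2391, 7046 and 11941 in wild type and 2631, 3761 and 3385 in het-labelled livers. Wild-type libraries 2, 4 and 5 were highest, and het-labelled library 2 came next. The widest gap between neighbouring shares was 0.75 on the log2 scale, the 5 shares below it spanned 0.80 and the 3 above it spanned 0.66, so correlations were computed over all 8 libraries. The correlations nevertheless mix the gap between the 3 high and 5 low libraries with the spread inside each. The 3 libraries with the most Rpph1 are those with the most of the Kupffer cell genes, whose part in the results on Rpph1 and the members below was not tested. In whole liver, fewer cells of a type and less RNA per cell cannot be told apart.

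The sums of the guide families had the same pattern as Rpph1, but Rn45s did not. The Snora RNAs together made up 0.00814, 0.0257, 0.0113, 0.0165 and 0.0348% of wild-type counts and 0.00769, 0.0135 and 0.00749% of het-labelled counts. Snord RNAs made up 0.00912, 0.0271, 0.0126, 0.0189 and 0.0358% of wild-type counts and 0.00721, 0.0147 and 0.00801% of het-labelled ones. For Scarna RNAs the shares were 0.013, 0.0348, 0.0147, 0.0223 and 0.0386% in wild type and 0.00848, 0.0162 and 0.00878% in het-labelled livers. In each family wild-type library 5 was highest, followed by wild-type libraries 2 and 4. Rn45s, the precursor of ribosomal RNA made by RNA polymerase I, took 2.55, 2.65, 3.14, 3.37 and 3.86% in wild type and 3.03, 2.69 and 3.99% in het-labelled livers, with its highest value in het-labelled library 3. All members but Rn45s took between 0.368 and 1.58% of a library.

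**Figure D1:**
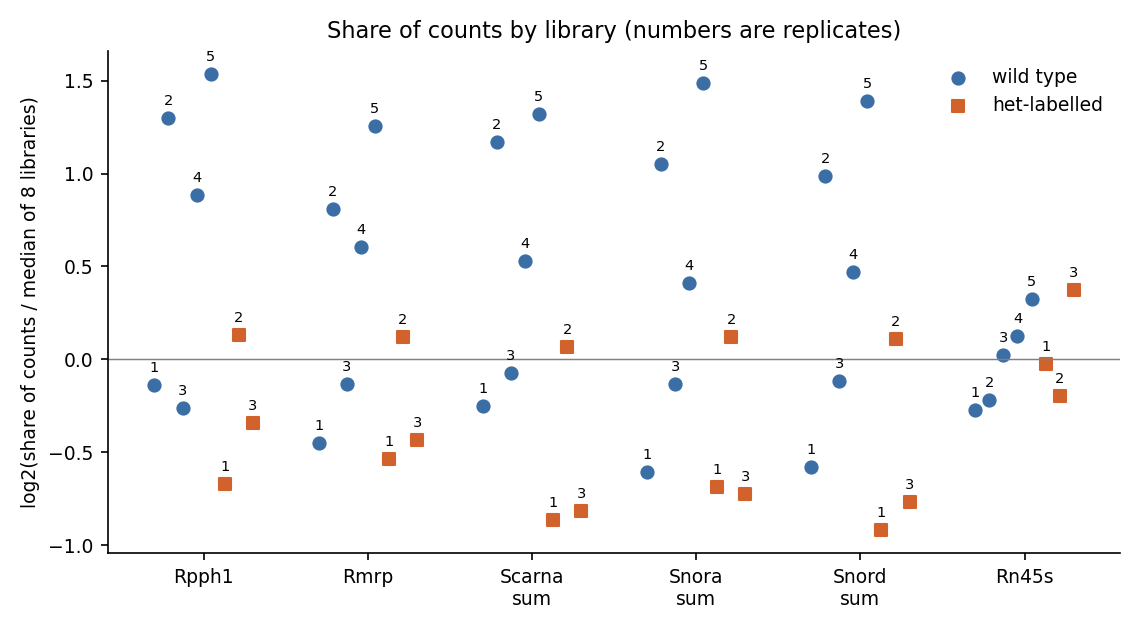
Share of counts in each library, as log2 of the share over the median of the 8 libraries (vertical axis), for Rpph1, Rmrp, the 3 summed guide families and Rn45s; circles are wild-type and squares het-labelled livers, numbered by replicate. Wild-type libraries 2, 4 and 5 are the top 3 for every quantity except Rn45s, where het-labelled library 3 is highest at 3.99% of counts.

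A member was said to follow Rpph1 when the Pearson correlation r of its log2 CPM with that of Rpph1 was above 0 and passed an exact permutation test. All 40320 orderings of the 8 libraries were used, two-sided, with Benjamini-Hochberg adjustment over 14437 genes at 0.05. By this rule 26 of the 56 members with enough counts to be tested followed Rpph1, and 0 were called in the opposite direction. Of all genes tested, 13.9% were called with a positive and 13.1% with a negative r, so many messenger RNAs moved with Rpph1 too. The median r was 0.786 over the members and −0.102 over all genes, and r was above 0 in 55 of 56 members against 45.5% of all genes. Members with few counts can pass the count filter through the 3 libraries high in Rpph1, which favours a positive r among those tested. How far this raised the members' values was not tested. Of the 47 members below the filter, r was above 0 in 29 when fitted with no filter, with a median of 0.163. The size of the response is given by the slope, the log2 change of a gene per unit of log2 Rpph1 CPM fitted by edgeR, for which 1 means strict proportion. Its median was 0.72 over the members and −0.06 over all genes, and 35 of 56 members had a slope of at least 0.5 against 8.16% of all genes. Wild-type libraries 5, 2 and 4 were the 3 highest libraries for 28 of the 56 members, and for 16.2% of all genes.

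Without wild-type libraries 2 and 5, the pair farthest from the median Rpph1 level, 0 members and 0 genes were called after adjustment. The smallest p that the remaining 6 libraries allow is 0.00139, so few calls could pass over 14263 genes and the loss of the calls says little about the relation itself. At an unadjusted exact permutation p under 0.05, 13 of the 48 members that still passed the filter were called positive, against 10.8% of genes. By Spearman's rho in all 8 libraries, 10 members were called (9.77% of all genes). The median r without wild-type libraries 2 and 5 was 0.597 over the 48 members and −0.049 over all genes. The 26 followers had a median r of 0.818, each above 0. They were chosen by r over 8 libraries that include the remaining 6, so their value is no separate support. With genotype as a further term, the slope passed edgeR's test in 29 of 56 members (19.9% of all genes), so the relation was also found with the genotypes' own levels taken out.

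Rmrp, next in counts after Rn45s and Rpph1, followed Rpph1 closely. Per kilobase of exon, in the authors' RPKM values, its median was 5334, against 10576 for Rpph1 and 5012 for Rn45s. It stood at 1041, 2727, 1157, 2566 and 4319 CPM in wild-type and 1275, 1651 and 1398 CPM in het-labelled livers (chr4:43492785-43493059, minus strand, mm10). The order of the libraries was nearly that of Rpph1, with r = 0.978 (exact permutation p = 0.000372, adjusted 0.00689) and Spearman's rho = 0.929 (exact permutation p = 0.00223, adjusted 0.0229). Without wild-type libraries 2 and 5 its r was 0.949. Its slope was 0.80 (SE 0.10). Exons on the other strand overlap 45.1% of its deposited span, and whether counting used strand is not stated. As shares of counts, Rmrp stood at 0.384% where Rpph1 stood at 1.06% in wild-type library 5, and at 0.147% where Rpph1 stood at 0.304% in wild-type library 3.

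The telomerase RNA, U3 and the minor spliceosome RNA U12 also followed Rpph1. Terc, the template of telomerase, had 6.22, 22, 7.32, 10.2 and 18.7 CPM in wild-type and 3.41, 6.46 and 6.96 CPM in het-labelled livers, with r = 0.886 (exact permutation, adjusted p = 0.0187) and a slope of 0.88 (SE 0.16). Its highest library was wild-type 2 rather than 5. Rnu3a, a U3 RNA needed for cleavage of the ribosomal RNA precursor, had 19.5, 84.7, 29.2, 56.1 and 129 CPM against 22.6, 35.9 and 17.1 CPM, with r = 0.927 (adjusted p = 0.0156, exact permutation). Rnu12, the U12 RNA of the minor spliceosome, had 19.6, 86.7, 23.5, 46.7 and 109.9 CPM against 17.9, 29.6 and 17.7 CPM, with r = 0.956 (adjusted p = 0.00978, exact permutation). Both had slopes slightly above 1, at 1.08 (SE 0.14) and 1.13 (SE 0.12). U11, which sits with U12 in 1 particle, did not pass: Rnu11 had 1.51, 2.78, 0.934, 1.7 and 3.91 CPM against 0.645, 1.35 and 2.86 CPM, with r = 0.772 (adjusted p = 0.0857, exact permutation) on a summed count of 308. Its deposited span lies wholly within exons of a gene on the other strand, and whether counting used strand is not stated. Rnu73b, with a summed count of 85, was too low to be tested.

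Among the 6 Cajal body RNAs tested, the 4 with GENCODE models of at least 265 bases followed Rpph1 (13.9% of all genes did). The 2 with models under 100 bases did not. The deposited spans do not show this split, with 61 bases for Scarna2 and 71 for Scarna10 against 62 for Scarna17. Scarna13 had 12.1, 43.6, 12, 31.6 and 74.5 CPM in wild-type and 13, 21.7 and 14.1 CPM in het-labelled livers, the highest r of all members at 0.982 (exact permutation, adjusted p = 0.00574) with a slope of 1.11 (SE 0.08). Scarna10, the guide RNA U85, had 42.3, 135, 37.4, 94.2 and 163 CPM against 26.1, 58.7 and 35.5 CPM, and Scarna6 had 14.8, 60.6, 18, 49.5 and 103 CPM against 23.4, 30.7 and 23.9 CPM. Their r were 0.966 and 0.965 and their slopes 1.06 and 1.04. Scarna2, the longest at 414 bases, moved less: 39.2, 90.8, 43.5, 53.5 and 86.9 CPM against 30.9, 35.6 and 26.1 CPM, with r = 0.856 (exact permutation, adjusted p = 0.0367) and a slope of 0.63 (SE 0.13). Scarna17 (79 bases) and Scarna9 (70 bases) ranged only from 2.19 to 5.12 CPM and from 0.934 to 1.87 CPM, with slopes of 0.24 and 0.15. Scarna3a and Scarna3b had too few counts to be tested.

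Of 24 H/ACA RNAs tested, 13 followed Rpph1, where 13.9% of all genes did. Snora68 had 14.9, 61.9, 17.7, 43.1 and 104 CPM in wild-type and 16.5, 29.3 and 19.5 CPM in het-labelled livers, with r = 0.977 (exact permutation, adjusted p = 0.00627) and a slope of 1.14 (SE 0.09). Snora74a, the most counted Snora, had 32.1, 117, 40.5, 81.1 and 187 CPM against 41.6, 62.3 and 38.4 CPM, with r = 0.956 and a slope of 0.97. In both, the 3 wild-type libraries that were high in Rpph1 lay above the 5 others. Snora23, Snora70 and Snora78 also followed, with r of 0.928, 0.967 and 0.907 and slopes of 1.15, 0.97 and 0.75. Snora44, Snora5c, Snora7a, Snora21, Snora52, Snora61, Snora81 and Snora31, listed for completeness, had r from 0.820 to 0.963 and slopes from 0.60 to 1.01. Among the 11 that did not pass, Snora28 had enough counts (683) to show a shallow slope: 2.31, 5.2, 2.99, 5.44 and 6.08 CPM against 4.61, 3.87 and 3.72 CPM gave r = 0.789 (exact permutation, adjusted p = 0.0691) and a slope of 0.40 (SE 0.13). For Snora75 no relation was detected, with 0.533, 0.567, 0.448, 0.549 and 0.421 CPM against 0.369, 0.323 and 0.762 CPM, r = 0.098 and a slope of 0.03 (SE 0.24). Its summed count was 82, and an error this wide could hide a moderate slope. Snora16a, with a summed count of 90, had r = 0.398 and a slope of 0.40 (SE 0.36). Snora17, Snora2b, Snora3, Snora30, Snora33, Snora41, Snora64 and Snora65 had r from 0.469 to 0.784.

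Of 20 C/D RNAs tested, 5 followed Rpph1, where 13.9% of all genes did. They were Snord22, Snord17, Snord15a, Snord15b and Snord118, the last known as U8 and needed for the large ribosomal subunit. Snord22 had 27.7, 101, 34.2, 81.6 and 168 CPM in wild-type and 28.2, 56.9 and 34.3 CPM in het-labelled livers (r = 0.969, slope 1.06, SE 0.10). Snord15a had 9.15, 27.1, 9.9, 21.4 and 47.7 CPM against 8.11, 14.2 and 11.9 CPM, with r = 0.979 (exact permutation, adjusted p = 0.00604) and a slope of 0.99 (SE 0.08). In both, as in Snora68 and Snora74a, het-labelled library 2 came next after the 3 high wild-type libraries. Snord17, the longest C/D member, had 11.5, 53.8, 15.2, 37.9 and 81.1 CPM against 12, 21.5 and 10.5 CPM and the steepest slope of all members, 1.20 (SE 0.12). Snord15b had r = 0.945 and a slope of 0.93, and Snord118 r = 0.837 (exact permutation, adjusted p = 0.0465) and a slope of 0.76.

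Snord96a and Snord104, of 81 and 70 bases, did not follow although they were as well counted as several followers. Snord96a had 2.49, 3.14, 2.99, 2.58 and 3.07 CPM in wild-type and 2.03, 2.48 and 2.33 CPM in het-labelled livers, a range that stayed nearly level while Rpph1 ran from 2391 to 11941 CPM. Its slope was 0.14 (SE 0.12) and its r 0.603 (exact permutation, adjusted p = 0.228) on a summed count of 434, the same sum as that of the follower Snora81, whose slope was 0.60 (SE 0.12). Snord104 had 1.15, 2.11, 2.09, 3.35 and 4.15 CPM against 2.26, 2.42 and 2.19 CPM, with r = 0.671 and a slope of 0.41 (SE 0.17). Snord45b had r = 0.047 on a summed count of 75. Snord71 alone among the tested members had a negative r: it stood at 0.888, 0.979, 1.05, 0.22 and 0.542 CPM against 0.737, 0.7 and 1.14 CPM, with r = −0.483 (exact permutation, adjusted p = 0.371) on a summed count of 133. Its lowest values were in wild-type libraries 4 and 5, but wild-type library 2 was among the higher ones. Snord2, Snord8, Snord13, Snord14c, Snord47, Snord49b, Snord53, Snord66, Snord89, Snord98 and Snord111 had r from 0.475 to 0.822 and did not pass.

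Rn45s, with the most counts of any member, varied without following Rpph1. It stood at 22456, 25633, 24720.2, 35298 and 43380.4 CPM in wild-type and 34807, 25306 and 46864 CPM in het-labelled livers (chr17:39842997-39848829, plus strand, mm10). Wild-type library 2, second for Rpph1, was among the 4 lowest here, and het-labelled library 3 was the highest. The r was 0.338 (exact permutation, adjusted p = 0.554) and the slope 0.15 (SE 0.19), so depth does not limit this value. Ribosomal RNA genes exist in many near-identical copies, and how their reads were assigned to this row is not stated.

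**Figure D2:**
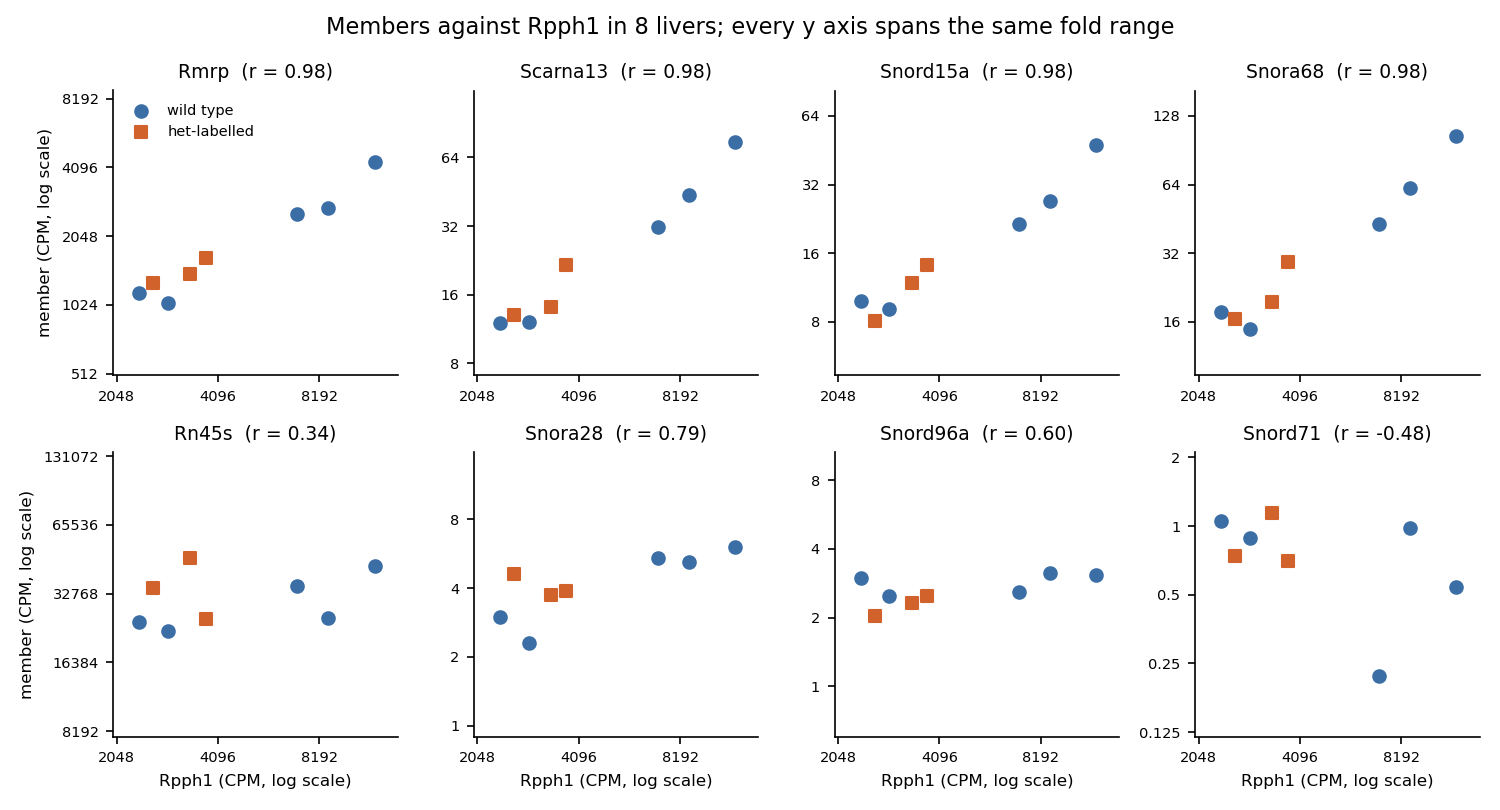
CPM of 8 members against CPM of Rpph1, both on log scales, with 1 point per liver (circles wild type, squares het-labelled) and the same fold range on every vertical axis. Rmrp, Scarna13, Snord15a and Snora68 rise with Rpph1 (r from 0.977 to 0.982), Snora28 rises less steeply, Snord96a is nearly level, and Rn45s and Snord71 are scattered (r = 0.338 and −0.483).

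Length and count both went with the relation, and with each other. Scarna17, with 596, had the most counts of the members under 100 bases. Of the members over 140 bases, Snora81, with 434, was the only one with under 1000 counts. The middle band of counts below therefore holds no other member over 140 bases. Over the whole set, length and count cannot be told apart. The counts of followers stand beside a share of 13.9% over all genes. By GENCODE length, 0 of 14 members under 100 bases followed Rpph1 (median slope 0.32), 12 of 27 from 100 to 140 bases (median slope 0.74) and 14 of 14 over 140 bases (median slope 1.02, from 0.60 to 1.20). Within the C/D RNAs alone, 0 of 12 under 100 bases and 5 of 8 of 100 bases or more followed. By summed count, 3 of 23 members under 200 counts, 8 of 17 with 200 to 1000 and 15 of 16 with at least 1000 were called, the exception being Rn45s. Within the middle band of counts, 0 of 5 short members followed, with slopes from 0.14 to 0.41, against 8 of 12 of 100 bases or more, with slopes from 0.40 to 1.01. The standard errors of these 5 short members' slopes were 0.12 to 0.18. The spans in the deposited table are shorter than the GENCODE models for several members (71 against 325 bases for Scarna10, 61 against 414 for Scarna2). By deposited span the followers were 4 of 21 under 100 bases, 9 of 21 from 100 to 140 and 13 of 14 above. The bands were chosen after values were seen, and no test was made of them.

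**Figure D3:**
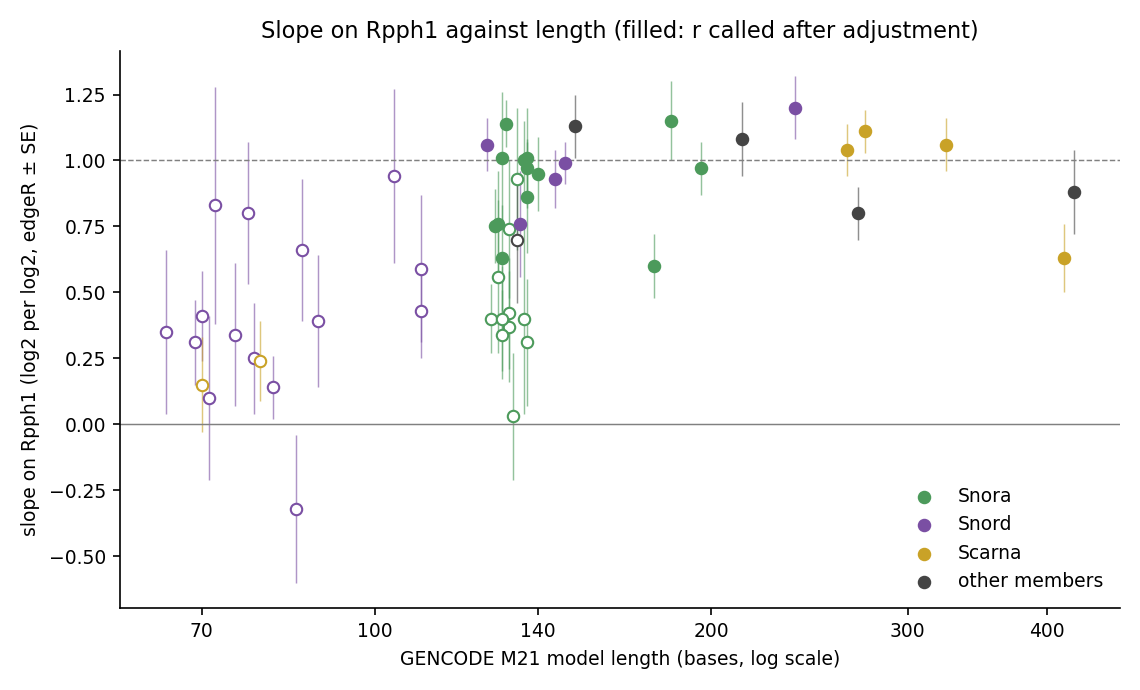
Slope of each tested member on Rpph1 (vertical axis, log2 per log2, with its standard error) against GENCODE model length on a log scale; colours give the family and filled points are members called as following. All 14 members over 140 bases are filled, with slopes from 0.60 to 1.20, and all 14 under 100 bases are open.

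The members below the count filter add little. These 47 RNAs (37 Snord, 7 Snora, 2 Scarna and Rnu73b) had summed counts from 10 to 85 and at most 23 counts in a library. Fitted with no filter, their r ran from −0.775 to 0.906 with a median of 0.163, and it was above 0 in 29. At this depth a relation with Rpph1 was not detectable in most of them: 2 of the 47 were called positive, where 11.3% of all genes were called with no filter.

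Guides that followed Rpph1 lay in host genes that rose, fell or passed in neither direction. For 44 tested members the annotation gives a gene on the same strand whose span holds the member. The 20 followers with a host lay in 18 host genes, and in 11 of these 20 pairs the host also had a called positive r, in 3 a negative one, and in 6 neither. The median slope of these hosts was 0.23 and that of the guides 1.00, and the guide's slope was above its host's in 18 of 20 pairs. These guides were chosen by their r with Rpph1 and the hosts were not, which favours a steeper guide. Among the 24 pairs whose guide did not follow, the host was called positive in 7 and negative in 4. There the guide's slope was above its host's in 19, with medians of 0.38 for guides and 0.13 for hosts, so a steeper guide was not particular to followers. Of all genes, 13.9% were called positive and 13.1% negative, so the negative calls of hosts were near the share over all genes.

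Several pairs moved apart. Scarna10 lies in Ncapd2, a condensin subunit, which had 13.1, 4.89, 13.5, 7.8 and 4.76 CPM in wild-type and 8.07, 9.69 and 7.2 CPM in het-labelled livers, low where Scarna10 was high (slope −0.56 against 1.06). Snora5c in Tbrg4 had a slope of 1.00 against −0.39 for the host, and Snora52 in Rplp2, a ribosomal stalk protein, 0.86 against −0.16. Snora70 in Rpl10 and Scarna6 in Atg16l1, an autophagy gene, had slopes of 0.97 and 1.04 where their hosts had −0.04 and −0.07. In the other direction, Rack1, host of Snord96a and a ribosomal scaffold protein, rose with Rpph1 from 176 to 315 CPM in wild type (slope 0.35, r = 0.979) while Snord96a was nearly level.

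Some hosts hold several guides, whose slopes are given side by side without a test of their difference. Eif4a2, a translation initiation factor, had a slope of 0.16 and holds Snora81 (178 bases, slope 0.60, SE 0.12) and Snord2 (69 bases, slope 0.31, SE 0.16). The noncoding host Snhg12, with 4.82 to 7.57 CPM over the 8 livers and a slope of 0.06, holds Snora16a, Snora44 and Snora61, with slopes of 0.40 (SE 0.36), 0.76 (SE 0.20) and 1.01 (SE 0.25). The errors of these guides are wide beside their differences. Snord15a and Snord15b share Rps3, a small ribosomal subunit protein, with slopes of 0.99 (SE 0.08) and 0.93 (SE 0.11) against 0.56 (SE 0.07) for Rps3. Snord22 and its noncoding host Snhg1 had slopes of 1.06 and 1.25 but differed in wild-type library 4. There Snhg1 stood at 18.2 CPM, against 60.8 and 72.1 CPM in wild-type libraries 2 and 5, and Snord22 at 81.6 CPM against 101 and 168 CPM. Without wild-type libraries 2 and 5, r was 0.69 for Snhg1 and 0.904 for Snord22. Reads from guides and host exons may be counted together: exons of another GENCODE gene on the same strand, which can be a second model of the same RNA, overlapped 28 of the 57 tested members and 12 of the 26 followers. Rpph1 itself was overlapped over 71.7% of its deposited span, Rn45s over 88.5%, and Snora68 and Snord22 wholly.

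**Figure D4:**
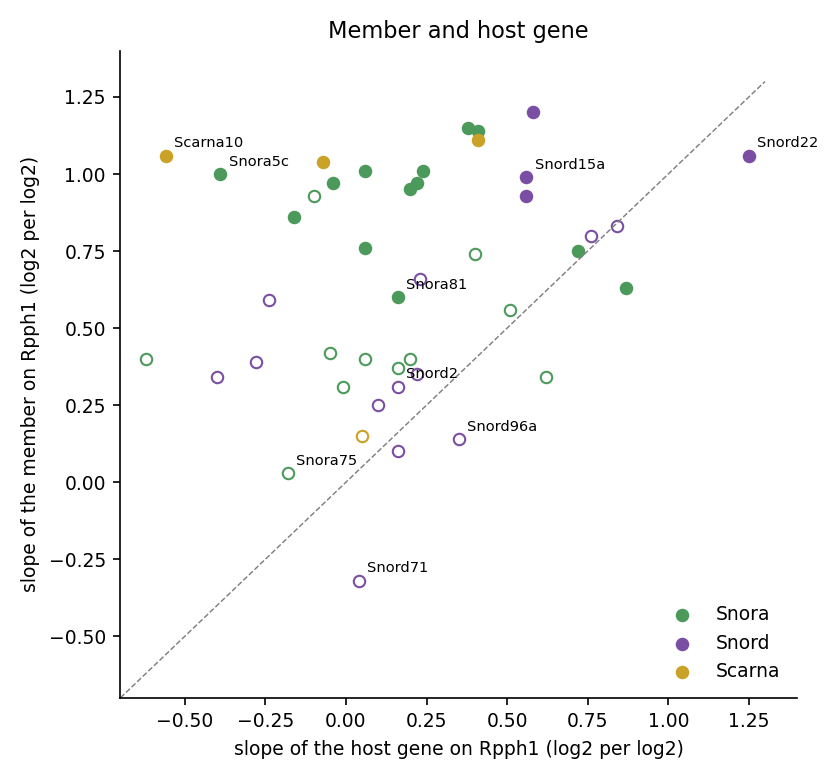
Slope on Rpph1 of each guide RNA (vertical axis) against the slope of its host gene (horizontal axis), both log2 per log2, with colours for the family, filled points for guides called as following and a dashed line at equality. Followers, which were chosen by r, lie above the line in 18 of 20 pairs and the other guides in 19 of 24. Scarna10 and Snora5c lie far from hosts whose slopes are −0.56 and −0.39.

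Transcripts of the proteins that work with these RNAs had lower slopes in the median than the RNAs themselves. No Rn7s or Rny RNA is among the members described, so the lists of 7SK, signal recognition particle and Ro proteins lack those partner RNAs here. Of 9 tested proteins of ribonucleases P and MRP, 2 followed Rpph1 and 0 were called in the opposite direction (background 13.9 and 13.1%), with a median slope of 0.16. Rpp38, a subunit of both enzymes, was at 2.84, 5.46, 3.21, 6.75 and 8.01 CPM in wild-type and 3.96, 3.55 and 4.1 CPM in het-labelled livers (slope 0.55). Of 6 H/ACA proteins, 1 followed, and Dkc1, the pseudouridine synthase dyskerin, did not pass (r = 0.788, slope 0.25). Of 9 C/D proteins, 4 followed and 2 were negative: Nop58, a core protein, followed (slope 0.38), while Fbl, the methyltransferase fibrillarin, had a slope of −0.18 and did not pass. Among 5 telomerase, Ro, La and Cajal body genes, 2 followed, Ro60 with a slope of 0.48, and Tert, the telomerase protein, did not pass (slope −0.23).

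Polymerase genes were called in both directions, where 13.9% of all genes were called positive and 13.1% negative. RNA polymerase III and its factors gave 2 followers and 7 negative calls of 27 (median slope −0.06), and RNA polymerase I and its factors 3 and 5 of 15 (median slope −0.07). Taf1d, of the polymerase I factor SL1, had the steepest slope of the polymerase I list, 0.70, with r = 0.989 and 20.2 to 60.2 CPM in wild type. The 7SK particle and P-TEFb gave 0 followers and 2 negative calls of 7, Cdk9, its kinase, with r = −0.937. Signal recognition particle proteins gave 4 followers and 1 negative call of 6, Srp19 rising (slope 0.77) and Srp68 falling (slope −0.36). Of 16 noncoding snoRNA host genes, 9 followed and 0 were negative, with a median slope of 0.49, and Zfas1 was among the followers (slope 0.63). Of 4 nuclear retained long noncoding RNAs, 0 followed and 1 was negative.

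The genes most like Rpph1 outside the set code for proteins. Over the 8 libraries the 5 highest r were those of Fundc1, a mitophagy receptor (0.998), Naa20, an acetyltransferase subunit (0.997), Zfp868 (0.997), Ostm1 (0.996) and Coprs (0.996). Their slopes ran from 0.52 for Ostm1 to 0.93 for Naa20. Naa20 stood at 17.3, 45.6, 13.9, 41.4 and 63.3 CPM in wild-type and 15.9, 23.4 and 18.6 CPM in het-labelled livers, the same order of libraries as Rpph1. The pattern was therefore shared with messenger RNAs.

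The comparison of genotypes gave lower levels of most members in het-labelled livers, but none passed. In edgeR's quasi-likelihood test 0 of 57 members and 0 of 14438 genes (0%) had an adjusted p under 0.05. At an unadjusted p under 0.05, 7 members were lower and 0 higher, against 5.43 and 10.3% of all genes. DESeq2 called 0 members after adjustment, where it called 166 genes, 71 of them lower (0.471% of 15070 genes). Its unadjusted p was under 0.05 with a lower level in 18 of 104 members (7.17% of genes). The median log2 fold change of the members, het-labelled over wild type, was −0.75, against 0.00 for all genes, and 52 of the 56 besides Rpph1 were below 0. The 7 members were Scarna2, Terc, Snora44, Rnu12, Scarna10, Snord17 and Rnu3a, all followers of Rpph1.

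Rpph1 had a log2 fold change of −1.02 (SE 0.53; edgeR adjusted p = 0.364), from 6598 ± 4015 CPM in wild type (SD, n = 5) to 3259 ± 575 CPM in het-labelled livers (SD, n = 3). An exact permutation test of its CPM gave p = 0.3214. The spread in wild type exceeded the difference, because wild-type libraries 1 and 3 lay within or below the het-labelled range. Rmrp gave −0.71 (SE 0.46; edgeR adjusted p = 0.445) with 2362 ± 1342 against 1441 ± 192 CPM, and Rn45s gave 0.24 (SE 0.32; adjusted p = 0.70 by edgeR). Permuting the CPM of Rn45s exactly gave p = 0.4286. Terc gave −1.20 (SE 0.47; edgeR adjusted p = 0.285), with 1 wild-type liver, library 1, below the highest het-labelled value.

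Scarna2 had the smallest unadjusted p of the members in edgeR (0.00953), and its groups did not overlap. All 3 het-labelled livers lay below all 5 wild-type livers, at 30.9 ± 4.73 CPM (SD, n = 3) against 62.8 ± 24.4 CPM (SD, n = 5). The exact permutation p was 0.0357, the smallest that the design allows, which the lack of overlap gives by itself. In the fit over all genes it differed by −1.02 on the log2 scale (SE 0.31; adjusted p = 0.259 by edgeR and 0.0707 by DESeq2), so it did not pass. Snord96a, Snord53 and Snord111, of which the last pair is named after its values were seen, also did not overlap between the groups and were lower in het-labelled livers, with log2 fold changes of −0.32, −0.75 and −0.82. This makes 4 of 57 members, against 2.32% of all genes, and 0 members lay above all wild-type livers, against 7.54% of genes. Snord96a reached this with a small difference, 2.33 and 2.48 CPM against 2.49 CPM in the nearest wild-type liver.

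The differences in the followers hang on which wild-type libraries are compared. Without wild-type libraries 2, 4 and 5, the median log2 fold change of the members was 0.08 and that of Rpph1 0.24, with 0 of 55 members called (0.143% of genes). Those 3 libraries stand out by Rpph1 itself, so a value computed without them describes the remaining 5 livers and is no test of genotype. Against wild-type libraries 2, 4 and 5 alone, 23 of 50 members were lower and 0 higher, where 10.5% of genes were lower and 8.4% higher, which the choice of those libraries by Rpph1 fixes for its followers. Without the 3 high libraries Scarna2 went from −1.02 to −0.48 (SE 0.16; edgeR adjusted p = 0.11) and Terc from −1.20 to −0.34 (SE 0.33; edgeR adjusted p = 0.505), while Rnu12 and Scarna10 were both at −0.05. The 3 highest Rpph1 shares were all in wild-type livers, and wild-type libraries 1 and 3 had shares near those of the het-labelled livers.

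**Figure D5:**
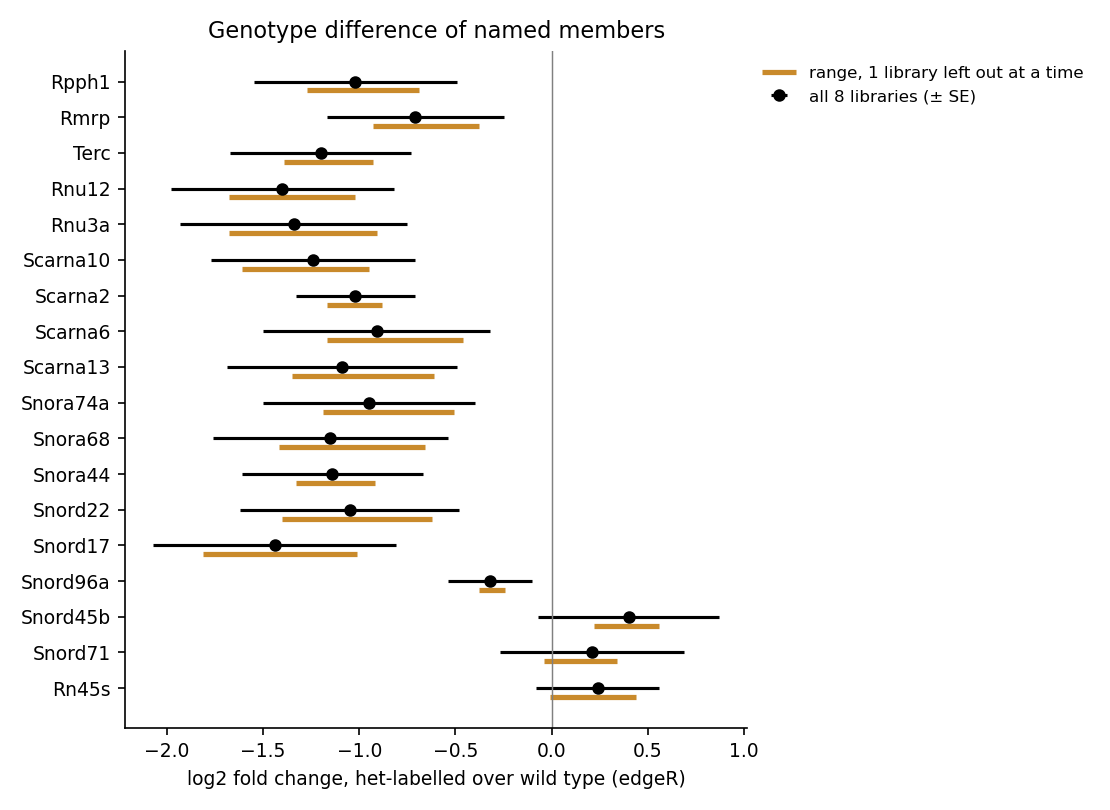
Log2 fold change of 18 named members, het-labelled over wild type (horizontal axis), with circles and black lines for the edgeR estimate and its standard error over all 8 libraries and orange bars for the range when 1 library is left out at a time. Followers lie between −1.44 and −0.71, Snord96a at −0.32, and Snord45b, Snord71 and Rn45s above 0, with bars that cross 0 for Snord71 and Rn45s.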

How the data were processed

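RNA from 8 livers was measured, 5 wild type and 3 het-labelled. Per the labels' protocols, liver was stored in RNAlater, RNA was treated with DNase I, and libraries were made with a KAPA mRNA HyperPrep kit. The submitters' processing notes name STAR, HTSeq, bcl2fastq 2.18.0.12 and the build mm10. For STAR and HTSeq the version does not appear in the sources used here, nor does the annotation, the counting mode or whether strand was used. Overlapping or antisense genes and near-identical copies (ribosomal RNA, U RNAs, snoRNA families) are therefore uncertain. Raw counts, 17508221 to 24916239 per library, and RPKM values per kilobase of exon were deposited by the authors. The deposited RPKM values served for levels between genes and as an alternative.

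Genotype labels gave the groups, and replicate numbers are in order of accession. Litters and batches are not described, and p-values cover only the spread between these 8 livers. Replicate pairs differed beyond sampling noise (chi-square per degree of freedom at least 22.89). The members, lists and tests were chosen with earlier results of these data known.

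Genes were kept by filterByExpr (minimum count 10, minimum total 15), which left 14438, among them 57 of the 104 members. Counts were scaled by TMM (factors 0.8518 to 1.272) and genotypes compared by edgeR's quasi-likelihood test, two-sided, with Benjamini-Hochberg adjustment over all genes tested at 0.05. Correlations with Rpph1 used log2 CPM with a prior count of 2 and exact permutation over 40320 orderings, adjusted over 14437 genes. The edgeR slope on Rpph1, alone and with a genotype term, was added after seeing the data. Lengths and sequences came from GENCODE M21 for 102 of the 104 members. Procedures were tested on simulated data. Named members are those outside the Snora, Snord and Scarna families, the 6 most counted Snora and Snord and 4 most counted Scarna, the 5 highest and 5 lowest r, the 3 smallest p in each direction, the 5 non-members with the highest r, hosts of named members, and up to 3 genes with the smallest p of each partner list. Alternatives were DESeq2, RLE scaling, library size alone, no filter, removal of Rn45s and Rpph1, RPKM with pseudocounts of 0.1 and 1, Spearman's rho, and libraries left out. Tools were edgeR 4.0.16 and DESeq2 1.42.0 in R 4.3.3, with scipy 1.17.1 and matplotlib 3.10.9 in Python 3.11.15.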

Additional observations from a re-analysis of the deposited data

How the results depend on the processing

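The count of 26 members following Rpph1 was 23 to 29 under the other scalings, the RPKM values, no filter and the edgeR slopes, 10 by Spearman's rho and 0 without wild-type libraries 2 and 5. With 1 library left out at a time it ran from 10 to 31, with 17, 13 and 10 without wild-type libraries 2, 4 and 5. The 2007 genes that followed became 0 without wild-type libraries 2 and 5 and ran from 768 to 1834 with 1 library left out, with 1152 and 768 without wild-type libraries 4 and 5. All 26 followers had a positive value under each of these settings, which their choice by r over the same livers largely fixes.

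For genotype, 0 genes and 0 members were called by edgeR in the settings other than these: DESeq2 called 166 genes and 0 members, the fit without wild-type libraries 2, 4 and 5 called 21 genes and 0 members, and the fit without wild-type libraries 1 and 3 called 2632 genes and 23 of 50 members, all lower (10.5% of genes were lower and 8.4% higher). Since wild-type libraries 1 and 3 are those low in Rpph1, the last count follows from the choice of libraries and supports nothing about genotype. Without wild-type libraries 2, 4 and 5 the log2 fold change reversed to 0.24 for Rpph1, 0.33 for Rmrp, 0.34 for Rnu11, 0.32 for Snora74a, 0.36 for Snora68, 0.45 for Snora23, 0.17 for Snora70, 0.18 for Snora78, 0.55 for Snora28, 0.33 for Snora16a, 0.31 for Snord22, 0.08 for Snord17, 0.07 for Snord15b, 0.20 for Snord15a, 0.43 for Snord104, 0.60 for Scarna6, 0.37 for Scarna13 and −0.23 for Snord71. It was −0.01 for Rn45s without wild-type libraries 1 and 3 and −0.04 for Snord71 with library size alone. With 1 library left out it ran from −0.01 to 0.44 for Rn45s, −0.28 to 0.04 for Snora28, −0.35 to 0.08 for Snord104, −0.04 to 0.34 for Snord71 (−0.01 without wild-type library 4), −0.53 to 0.17 for Snora75 (0.12 without het-labelled library 1) and −0.68 to 0.28 for Snora16a (0.14 without het-labelled library 1).

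Values of r near 0 also changed sign. For Snord45b r was −0.03 on library shares, −0.01 on RPKM with either pseudocount and −0.15 to 0.57 with 1 library left out. For Snora75 it was −0.01 on shares and −0.04 to 0.33 with 1 library left out, and for the host Ap1g1 −0.10 on shares. For the host Snhg12 it was −0.05 by Spearman's rho, −0.21 without wild-type libraries 2 and 5 and −0.60 to 0.59 with 1 library left out. The slope of Rpl10 was 0.03 with a genotype term. The cause was not tested for any of these. No paired analysis was possible because replicates were numbered in accession order only and the labels do not pair livers across genotypes. Depth limits the members with under 200 counts in all, whose r and fold changes carry wide errors.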

Other observations

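Of 29 sets of 5 wild-type values examined for a single outlying library by Dixon's test, 0 stood out. The 2 libraries with the highest summed share of members other than Rn45s, Rpph1 and Rmrp were wild-type 5 (0.133% of counts) and wild-type 2 (0.108%), and the lowest were het-labelled 1 (0.0274%) and het-labelled 3 (0.0281%).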
